A study of Mus musculus with 10 samples.

Results

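S100A calcium-binding proteins are small proteins with paired EF hands, the loops that take up calcium, and most act as dimers that bind a partner protein once calcium is bound. In skin they are known as products of keratinocytes at different stages of differentiation, as proteins of the hair shaft and as alarm signals of stressed or inflamed epidermis. Their genes lie together in the epidermal differentiation complex of mouse chromosome 3, beside genes of the cornified layer. The S100A genes described here are S100a3, S100a4, S100a6, S100a7a, S100a8, S100a9, S100a10, S100a11, S100a14 and S100a16, chosen by name, with earlier results of these data known. They are 10 of the 19938 genes that have a probe set with a single gene symbol on the array, and all 10 passed the filter on low values, as did 18121 genes in all. A member with more than 1 such probe set, which was the case for 1 of them, is shown by the one of them that was brightest on average across the 10 arrays.

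ILK is integrin-linked kinase, a scaffold protein of integrin adhesions. ILK-deficient epidermis came from K14Cre; Ilk f/f mice, which are heterozygous for the KRT14-cre transgene and carry 2 floxed copies of Ilk, and ILK-expressing epidermis came from K14Cre; Ilk f/+ littermates with the same transgene and 1 floxed copy. Both genotypes therefore carry Cre recombinase under the keratin 14 promoter, which is active in basal keratinocytes and in the cells that arise from them, hair follicles included, but not in immune cells, melanocytes or fibroblasts. Mice were 3 days old, the epidermis was separated from the dermis with dispase, and total RNA of 5 ILK-deficient and 5 ILK-expressing mice was hybridised to 1 GeneChip Mouse Gene 1.0 ST Array per mouse. Values are on a log2 scale after the authors' normalization, and a log2 fold change is ILK-deficient minus ILK-expressing. Adjusted p values are from limma with Benjamini-Hochberg adjustment over the 32046 probe sets tested, and a gene was called changed where this value was under 0.05. Levels of different genes come from different probes and were not set against each other.

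Array medians lay between 7.07 and 7.17, and the number of arrays limits the precision. ILK-expressing replicate 5 separated from the other 9 arrays at the first split of a clustering, and it is the single array whose sample code starts with C'. Of the rest, ILK-expressing replicate 4 and ILK-deficient replicate 5 have codes that start with D', and 4 ILK-deficient and 3 ILK-expressing arrays have codes that start with D. The labels do not say what the codes mean. Member values are therefore also given for D-coded arrays alone and without ILK-expressing replicates 4 and 5. Leaving out those 2 together was chosen after seeing the data. The probe set of Ilk pools exons inside and outside the deleted part, and its log2 value averaged 8.94 in ILK-deficient and 9.17 in ILK-expressing epidermis (log2 fold change -0.23, adjusted p = 0.253 from limma), which checks the labels little. The labelled tissue was checked by keratinocyte markers, whose summed linear values were 70353 to 76112 on ILK-deficient and 73003 to 80683 on ILK-expressing arrays. Of 7 such markers Trp63, a transcription factor of basal keratinocytes, was called higher and Krt14, a basal keratin, lower. Over all probe sets tested, 2.81% were called higher and 0.97% lower. In whole tissue, fewer cells of a type and less RNA per cell cannot be told apart.

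The promoter sequences of 3 neighbouring members are shown first, because these genes lie within a short stretch of chromosome 3 and differed in what they did between the genotypes. Windows cover 250 bases before and 50 bases after a start site, run 5' to 3' on the + strand, and come from RefSeq on GRCm38.p6, which holds 1 or more windows for 8 of the 10 members. Capitals mark every match, on either strand, of 5 motifs that were searched, namely the TATA box (spelled TATAAA), the GC box (spelled GGGCGG), the TCF/LEF core (spelled CTTTGA), the RUNX core (spelled TGTGGT) and the AP-1 site (spelled TGANTCA), which occurs in 7.81% of windows and in none of those shown. For S100a3, 2 of its 4 windows are shown, those that hold a match. None of the 4 lies at the start of its annotated span, 90560356.
S100a3, chr3:90588313-90588612: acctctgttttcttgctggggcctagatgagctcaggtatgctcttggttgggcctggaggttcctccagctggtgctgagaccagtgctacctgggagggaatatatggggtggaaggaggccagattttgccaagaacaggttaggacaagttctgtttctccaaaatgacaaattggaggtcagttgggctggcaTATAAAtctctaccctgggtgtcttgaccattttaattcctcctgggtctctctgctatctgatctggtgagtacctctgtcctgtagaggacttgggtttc
S100a3, chr3:90599964-90600263: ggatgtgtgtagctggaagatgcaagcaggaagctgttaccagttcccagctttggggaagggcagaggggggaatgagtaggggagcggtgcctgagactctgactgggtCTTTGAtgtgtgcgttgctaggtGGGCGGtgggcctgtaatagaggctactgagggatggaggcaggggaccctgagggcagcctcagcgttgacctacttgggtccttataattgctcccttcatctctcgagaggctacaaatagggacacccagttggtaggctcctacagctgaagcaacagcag
S100a4, chr3:90603520-90603819: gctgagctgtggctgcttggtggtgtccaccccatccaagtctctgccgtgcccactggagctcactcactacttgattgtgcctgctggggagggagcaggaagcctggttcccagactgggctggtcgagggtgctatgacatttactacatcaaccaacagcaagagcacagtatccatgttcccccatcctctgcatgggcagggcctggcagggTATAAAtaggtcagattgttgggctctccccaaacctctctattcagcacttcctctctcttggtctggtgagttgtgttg
S100a6, chr3:90612644-90612943: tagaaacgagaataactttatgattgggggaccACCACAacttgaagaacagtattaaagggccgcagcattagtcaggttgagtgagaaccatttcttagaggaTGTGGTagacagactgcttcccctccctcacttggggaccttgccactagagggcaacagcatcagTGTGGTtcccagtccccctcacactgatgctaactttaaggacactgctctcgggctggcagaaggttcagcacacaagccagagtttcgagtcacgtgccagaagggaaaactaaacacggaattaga
With the start site at 0, the TATAAA of S100a4 lies at -31, and that of the first S100a3 window at -52. TATAAA occurs in 13.6% of 32851 mouse windows of this length. The second S100a3 window holds CTTTGA at -139 and GGGCGG at -116, motifs found in 16% and 35.7% of windows. The S100a6 window holds no TATAAA, and has the RUNX core at -217, -145 and -79. This core is present in 16.8% of windows. Among the other members, S100a8 has TATAAA at -30, and the S100a7a window holds none of the 5 motifs. These matches describe the letters of the windows and show no binding.

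S100a3 encodes a cysteine-rich S100 protein that is known from the cuticle, the outer cell layer of the hair shaft, where peptidylarginine deiminase 3 modifies it. Its log2 values were 6.66, 7.45, 7.40, 7.47 and 7.15 on the ILK-deficient arrays, against 9.38, 10.00, 9.31, 11.14 and 10.89 on the ILK-expressing arrays. No ILK-deficient array reached the lowest ILK-expressing one. The highest 2 values were those of ILK-expressing replicates 4 and 5. The mean was 7.23 ± 0.340 in ILK-deficient and 10.14 ± 0.845 in ILK-expressing epidermis (SD, n = 5 each). S100a3 was thus 7.55-fold lower in ILK-deficient epidermis, with a log2 fold change of -2.92 (standard error 0.357, 95% interval -3.71 to -2.13, adjusted p = 0.00304 from limma). An exact permutation test, two-sided, gave p = 0.00794, the smallest value that the 252 splits of 10 arrays into 5 and 5 allow. On D-coded arrays alone the transcript was 4.97-fold lower (adjusted p = 0.00912 from limma), and without ILK-expressing replicates 4 and 5 it was 5.04-fold lower (adjusted p = 0.00232 from limma). Between the D'-coded arrays, 1 of each genotype, the values were 7.15 in ILK-deficient and 11.14 in ILK-expressing epidermis. The call held in 22 of 22 alternative settings.

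**Figure D1:**
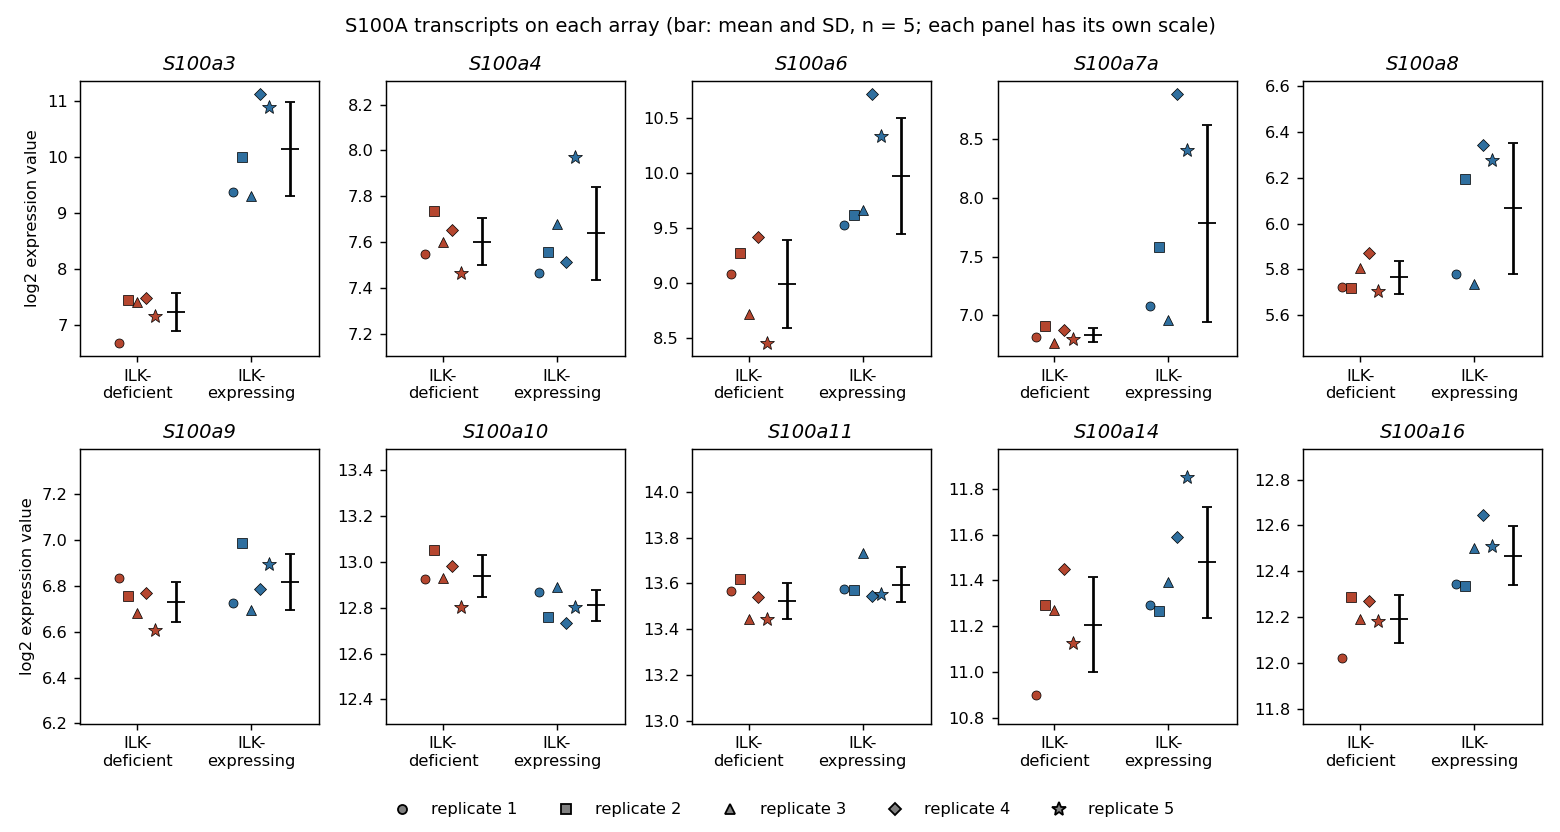
Log2 expression value of each S100A member (y axis, own scale per panel) on the 5 ILK-deficient arrays (red, left) and the 5 ILK-expressing arrays (blue, right); marker shapes stand for replicate numbers, and bars give mean and SD within a genotype. In the panels of S100a3, S100a6, S100a7a and S100a16, no ILK-deficient array reached the ILK-expressing ones.

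Of the 10 members, S100a3 was the 1 called lower and 0 were called higher, where 0.97% of all probe sets tested were called lower and 2.81% higher (3.78% in either direction). At an unadjusted p under 0.05, 5 members were lower and 0 higher, where 5.65% and 10.2% of all probe sets were. The ILK-deficient arrays lay below all ILK-expressing arrays for 4 members, S100a3, S100a6, S100a7a and S100a16, where this held for 1.96% of all probe sets. They lay above all ILK-expressing arrays for 0 members, where 4.37% of probe sets did so, and for the other 6 members the genotypes overlapped. Log2 fold changes were negative for 9 members and positive for 1, with a median of -0.27, beside 0.00 over all probe sets. At least 1.5-fold lower were 3 members, S100a3, S100a6 and S100a7a, which also had an unadjusted p under 0.05, where 0.892% of all probe sets met both, and 0 were at least 1.5-fold higher, where 1.74% of all probe sets met the like in that direction.

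**Figure D2:**
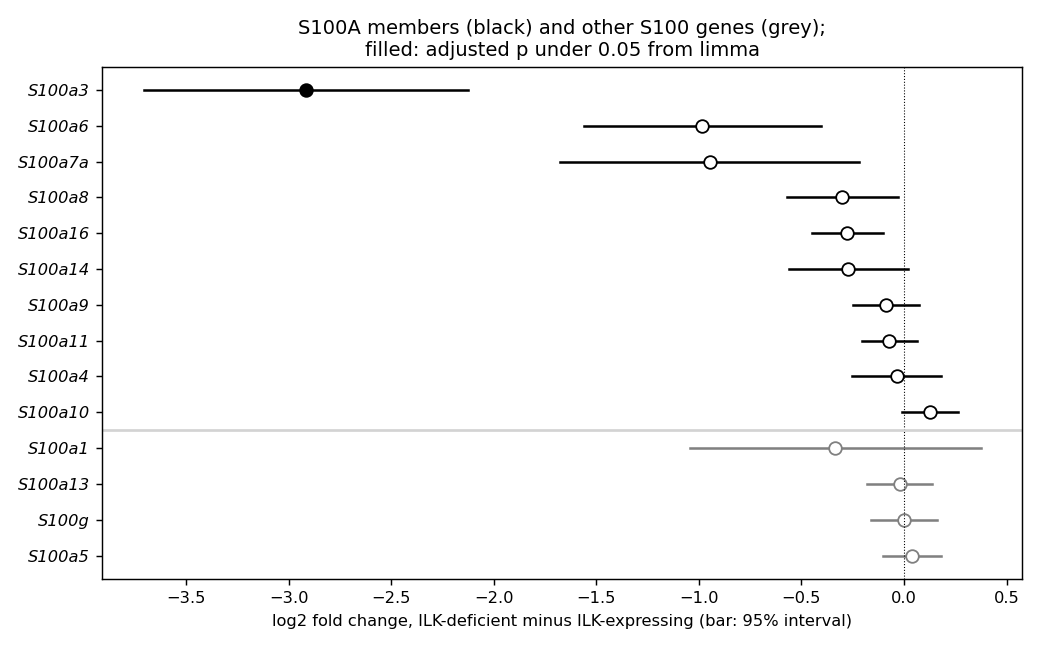
Log2 fold change, ILK-deficient minus ILK-expressing (x axis), with its 95% interval from limma for the 10 S100A members (black) and 4 other S100 genes (grey); filled points have an adjusted p under 0.05. S100a3 at -2.92 is the 1 filled point, and S100a6 and S100a7a lie near -0.98 and -0.95.

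S100a6 encodes calcyclin, which binds annexins and the ubiquitin ligase adaptor calcyclin-binding protein, and is known from proliferating cells and hair follicles. Its log2 values were 9.08, 9.27, 8.72, 9.42 and 8.45 on the ILK-deficient arrays, against 9.52, 9.62, 9.66, 10.72 and 10.33 on the ILK-expressing arrays. The genotypes did not overlap, although the highest ILK-deficient and the lowest ILK-expressing array lay close together. The mean was 8.99 ± 0.40 in ILK-deficient and 9.97 ± 0.528 in ILK-expressing epidermis (SD, n = 5 each). The log2 fold change of -0.98 (95% interval -1.56 to -0.41) did not pass the adjustment (adjusted p = 0.0701 from limma; p = 0.00794 by exact two-sided permutation). Its size rested in part on ILK-expressing replicates 4 and 5. On D-coded arrays alone the log2 fold change was -0.48 (95% interval -0.84 to -0.11, adjusted p = 0.276 from limma). Without those replicates it was -0.61 (95% interval -1.08 to -0.15, adjusted p = 0.217 from limma).

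S100a7a is the mouse relative of human psoriasin, S100A7, an antimicrobial and chemotactic protein of psoriatic keratinocytes. Its log2 values were 6.82, 6.91, 6.76, 6.88 and 6.80 on the ILK-deficient arrays, against 7.08, 7.59, 6.96, 8.89 and 8.41 on the ILK-expressing arrays. The ILK-deficient arrays were nearly alike, with a mean of 6.84 ± 0.0610, and the ILK-expressing arrays spread widely around 7.78 ± 0.839 (SD, n = 5 each). The log2 fold change of -0.95 (95% interval -1.68 to -0.22) did not pass the adjustment (adjusted p = 0.167 from limma; p = 0.00794 by exact two-sided permutation). It was -0.37 on D-coded arrays alone (95% interval -0.70 to -0.03, adjusted p = 0.378 from limma). Without ILK-expressing replicates 4 and 5 it was likewise -0.37 (95% interval -0.67 to -0.08, adjusted p = 0.241 from limma). Psors1c2, a gene of chromosome 17 that the study equates with psoriasin, is no S100 gene in the annotation used and has its own probe set. Psors1c2 averaged 6.70 in ILK-deficient and 8.86 in ILK-expressing epidermis, and its log2 fold change was -2.16 (adjusted p = 0.0394 from limma). On D-coded arrays alone that of Psors1c2 was -1.23. The values of S100a7a and of Psors1c2 are thus those of separate transcripts.

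S100a8 and S100a9 encode the subunits of calprotectin, which neutrophils store in large amounts and keratinocytes make when stressed or inflamed. The log2 values of S100a8 were 5.72, 5.72, 5.81, 5.87 and 5.71 on the ILK-deficient arrays, against 5.78, 6.19, 5.74, 6.34 and 6.28 on the ILK-expressing arrays. The genotypes overlapped, and ILK-deficient values lay close to 5.64, the log2 of the minimum of 50 used to filter probe sets. The log2 fold change was -0.30 (95% interval -0.57 to -0.03, adjusted p = 0.247 from limma). On D-coded arrays alone it was -0.12 (95% interval -0.40 to 0.15, adjusted p = 0.826 from limma). Without ILK-expressing replicates 4 and 5 it was -0.14 (95% interval -0.39 to 0.11, adjusted p = 0.683 from limma). S100a9 had log2 values of 6.84, 6.75, 6.68, 6.77 and 6.61 on the ILK-deficient arrays, against 6.73, 6.99, 6.69, 6.78 and 6.89 on the ILK-expressing arrays. The genotypes overlapped, although ILK-deficient replicates 3 and 5 lay just below the lowest ILK-expressing array, with a log2 fold change of -0.09 (95% interval -0.25 to 0.07, adjusted p = 0.684 from limma), so that the interval leaves out a rise of more than 0.07. Neutrophil markers were low, with summed linear values of 560 to 603 on ILK-deficient and 559 to 630 on ILK-expressing arrays. Of 10 such markers 7 were tested and 0 called (limma; 0 also at an unadjusted p under 0.05), and Ltf, Csf3r and Mmp8 were under the minimum on all 10 arrays.

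The genes that keratinocytes are known to raise together with calprotectin in wounded or inflamed skin were looked at for comparison. Of 10 tested 1 was called, Krt17, a keratin of hair follicles and injured epidermis, which rose (13.42 ± 0.102 in ILK-deficient and 13.12 ± 0.0661 in ILK-expressing epidermis, SD, n = 5 each; log2 fold change 0.30, adjusted p = 0.0325 from limma). This call held in 9 of 22 alternative settings. Over all probe sets 2.81% were called higher. At an unadjusted p under 0.05, 2 of the 10 genes were higher and 0 lower, where 10.2% and 5.65% of all probe sets were. The second was Krt6b, a stress and companion layer keratin, with a log2 fold change of 1.36 (adjusted p = 0.112 from limma). Krt6b had overlapping genotypes and did not pass. The same held for the other 8 genes. Of these, the stress keratins Krt6a and Krt16 were at 0.38 and 0.42, and the cornified envelope precursors Sprr2d and Sprr1b at 0.51 and 0.04. Stfa3, a cysteine protease inhibitor, was at -0.16, the defensin genes Defb3 and Defb14 at -0.04 and -0.08, and Lcn2, which encodes lipocalin 2, at -0.02.

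S100a16 and S100a14 encode epithelial S100 proteins that can bind each other and whose calcium binding differs from the usual pattern. The log2 values of S100a16 were 12.02, 12.29, 12.19, 12.27 and 12.18 on the ILK-deficient arrays, against 12.35, 12.33, 12.50, 12.64 and 12.51 on the ILK-expressing arrays. The shift was small, but each ILK-deficient array lay below each ILK-expressing one. The mean was 12.19 ± 0.104 in ILK-deficient and 12.47 ± 0.129 in ILK-expressing epidermis (SD, n = 5 each), 1.21-fold lower, with a log2 fold change of -0.28 (95% interval -0.45 to -0.10, adjusted p = 0.0864 from limma; p = 0.00794 by exact two-sided permutation). S100a14 had log2 values of 10.90, 11.29, 11.27, 11.45 and 11.13 on the ILK-deficient arrays, against 11.29, 11.27, 11.39, 11.59 and 11.85 on the ILK-expressing arrays. Here the genotypes overlapped. The log2 fold change of -0.27 (95% interval -0.56 to 0.02, adjusted p = 0.360 from limma) became -0.09 on D-coded arrays alone. On the same arrays that of S100a16 was -0.20 (95% interval -0.42 to 0.01, adjusted p = 0.470 from limma). Without ILK-expressing replicates 4 and 5 that of S100a16 was likewise -0.20 (95% interval -0.39 to -0.02, adjusted p = 0.316 from limma), and that of S100a14 was -0.11.

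S100a10 and S100a11 encode partners of annexins. S100A10, which has lost the ability to bind calcium, forms a complex with annexin A2 at the plasma membrane, and S100A11 binds annexin A1 and is cross-linked into the cornified envelope. The log2 values of S100a10 were 12.93, 13.05, 12.93, 12.98 and 12.80 on the ILK-deficient arrays, against 12.87, 12.76, 12.89, 12.73 and 12.80 on the ILK-expressing arrays. It was the 1 member with a positive log2 fold change, 0.13 (95% interval -0.01 to 0.27), and it did not pass (adjusted p = 0.362 from limma; p = 0.0476 by exact two-sided permutation). S100a11 had log2 values of 13.57, 13.62, 13.44, 13.54 and 13.44 on the ILK-deficient arrays, against 13.57, 13.57, 13.73, 13.54 and 13.56 on the ILK-expressing arrays. The genotypes overlapped, with a log2 fold change of -0.07 (95% interval -0.21 to 0.06, adjusted p = 0.689 from limma). A second probe set with the symbol S100a11 gave -0.08 (adjusted p = 0.601 from limma).

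S100a4 encodes a protein of fibroblasts, immune cells and other motile cells that binds the heavy chain of non-muscle myosin. Its log2 values were 7.55, 7.74, 7.60, 7.65 and 7.47 on the ILK-deficient arrays, against 7.47, 7.56, 7.68, 7.51 and 7.97 on the ILK-expressing arrays. The highest value was that of ILK-expressing replicate 5, and the genotypes overlapped. The log2 fold change was -0.04 (95% interval -0.25 to 0.18, adjusted p = 0.939 from limma), and it was 0.05 without ILK-expressing replicate 5. Fibroblast markers had summed linear values of 10310 to 13759 on ILK-deficient and 5854 to 10811 on ILK-expressing arrays, with 1 of 8, Vim, called higher. Macrophage markers summed to 1106 to 1322 on ILK-deficient and 1010 to 1282 on ILK-expressing arrays, with Lyz2 and Adgre1 called higher among 8. Over all probe sets 2.81% were called higher. The other macrophage markers were not called. Csf1r, Mrc1 and Cd14 were at 0.15, 0.32 and 0.04, and Cd68, Ccr2 and Cd163 were each at -0.08. The part of these cells in the S100a4 values was not tested.

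Outside the members, S100a1, S100a2, S100a5, S100a13 and S100g were tested, and of these 5 genes 0 were called (limma; 0 also at an unadjusted p under 0.05). S100a1, known from muscle and nerve cells, had a log2 fold change of -0.34 (95% interval -1.05 to 0.38, adjusted p = 0.742 from limma). S100a2 was at -0.07, S100a13 at -0.02, S100a5 at 0.04 and S100g at 0.00. S100b, a glial and melanocyte gene, reached the minimum on 4 arrays and S100z on 0 arrays, and neither was tested.

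Proteins that S100A dimers bind, act on or signal through were on the array for all 15 listed genes, and 1 of the 15 was called, in the lower direction, where 3.78% of all probe sets were called in either direction and 0.97% lower. At an unadjusted p under 0.05, 2 were lower and 1 was higher, where 5.65% and 10.2% of all probe sets were. Padi3, which encodes the deiminase of S100A3, averaged 7.90 ± 0.0851 in ILK-deficient and 10.09 ± 1.25 in ILK-expressing epidermis (SD, n = 5 each). Its log2 fold change was -2.19 (adjusted p = 0.0355 from limma), and the call held in 13 of 22 alternative settings. On D-coded arrays alone it was -1.34. The other gene lower at an unadjusted p under 0.05 was Cacybp, which encodes calcyclin-binding protein, at -0.12 (adjusted p = 0.307 from limma). S100pbp, which encodes an S100P-binding protein, had no overlap between genotypes and was at 0.27 (adjusted p = 0.0902 from limma). None of the 5 annexin genes passed, with Anxa1 at 0.02, Anxa2 at 0.08, Anxa5 at -0.03, Anxa6 at 0.14 and Anxa11 at -0.22. Nptn, which encodes neuroplastin, a receptor for S100A8, was at -0.00. Over the 15 genes the median log2 fold change was 0.01, beside 0.00 over all probe sets.

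The order of the members on chromosome 3 (GRCm38.p6) is S100a14, S100a16, S100a3, S100a4, S100a6, S100a7a, S100a8 and S100a9 in a first block, and S100a11 and S100a10 after 43 further tested genes. In the first block the member called lower lay between genes that were not called. S100a3, annotated from 90560356 to 90602706, has S100a16 before it and S100a2 within its annotated span. S100a2 had a log2 fold change of -0.07 (adjusted p = 0.887 from limma). S100a4 and S100a5, at -0.04 and 0.04, lie between S100a3 and S100a6. Pglyrp4, the gene after S100a9, encodes a peptidoglycan recognition protein and was lower at -0.90 (adjusted p = 0.0326 from limma). S100a13 at -0.02 precedes S100a14, and Tdpoz2 at 0.10 follows S100a10. Of the 45 tested non-members between S100a14 and S100a10, 4 were called lower and 0 higher, where 0.97% and 2.81% of all probe sets were. Besides Pglyrp4 these were Tchh, which encodes trichohyalin of the inner root sheath, at -4.08, Prr9, a proline-rich protein gene, at -4.34, and Crnn, which encodes cornulin, at -3.11. Tchhl1, next to S100a11, was at -1.61 and did not pass (adjusted p = 0.0730 from limma).

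**Figure D3:**
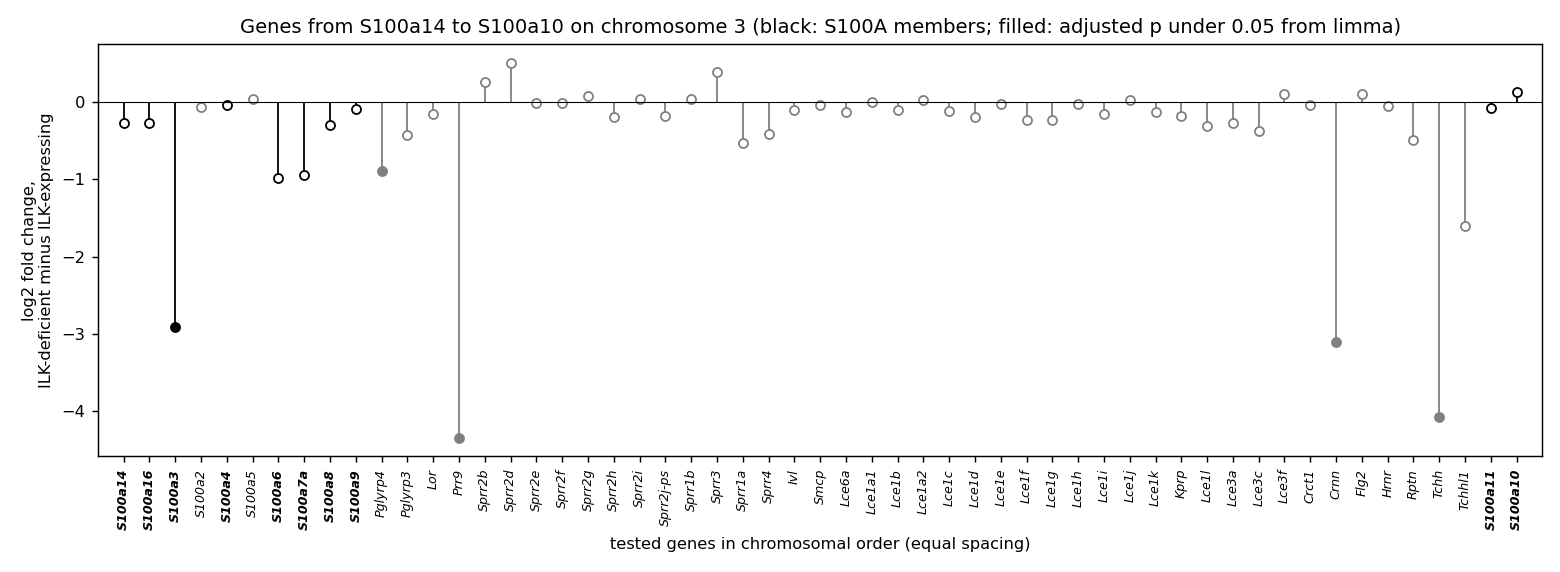
Log2 fold change, ILK-deficient minus ILK-expressing (y axis), of the 55 tested genes from S100a14 to S100a10 in chromosomal order with equal spacing (x axis); black points are S100A members, grey points other genes, and filled points have an adjusted p under 0.05 from limma. S100a3 is the 1 filled member, and 4 other genes of the stretch are filled, all below 0.

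For 6 members, S100a3, S100a6, S100a7a, S100a8, S100a14 and S100a16, the highest 2 of the 10 arrays were ILK-expressing replicates 4 and 5. The deviations of each array from its genotype mean were compared over the 10 arrays as a description, since the arrays share their normalization and since those 2 arrays weigh heavily. Pearson's r was 0.93 between S100a3 and S100a7a and 0.89 between S100a3 and S100a8. Within the 5 ILK-deficient arrays r was 0.34 and 0.52 for the same pairs, and within the 5 ILK-expressing arrays 0.99 and 0.94. Other pairs went the other way. S100a3 had an r of 0.78 with S100a14 and 0.71 with S100a16 over the 10 arrays. Within the 5 ILK-deficient arrays both were 0.96. Over the 10 arrays, S100a8 and S100a9, whose proteins form 1 complex, had an r of 0.56, S100a14 and S100a16 of 0.77, and S100a10 and S100a11 of 0.75. The genes with deviations most like those of S100a3 were Actbl2, an actin-like gene (r = 0.97, log2 fold change -0.80, adjusted p = 0.169 from limma), Calhm4 (r = 0.97, -3.41, adjusted p = 0.00779 from limma) and Ly6g6g (r = 0.97, -2.53, adjusted p = 0.0158 from limma). An r of this size was not particular to S100a3. For S100a4, S100a9 and S100a11, which were not called, the closest gene had an r of 0.97, 0.98 and 0.98.

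**Figure D4:**
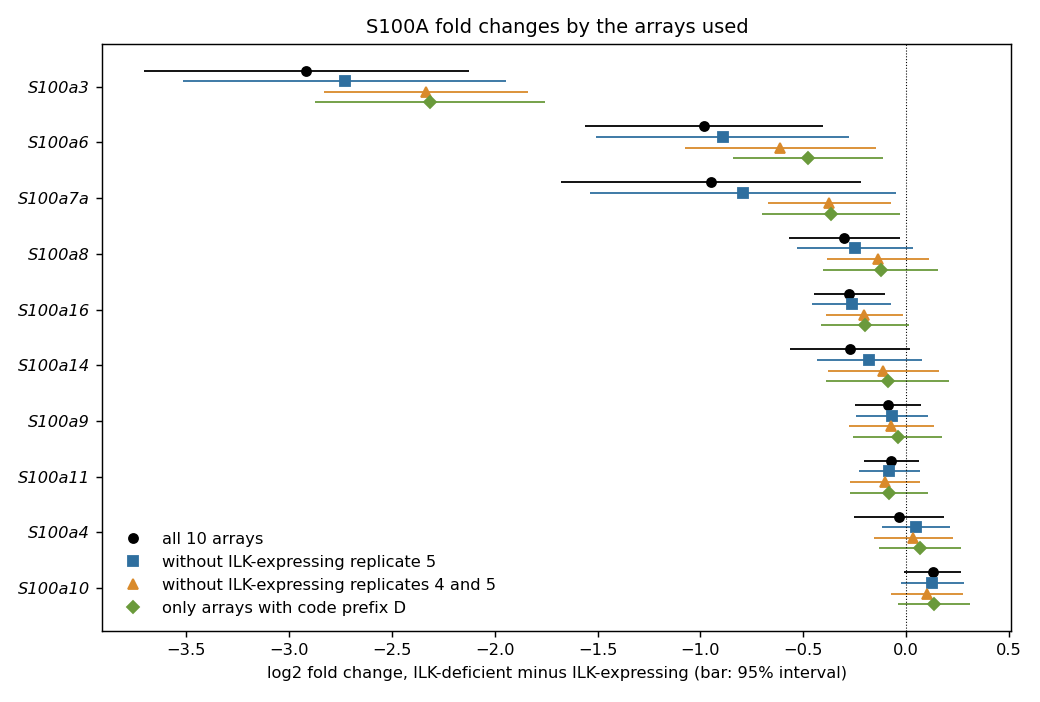
Log2 fold change, ILK-deficient minus ILK-expressing, with its 95% interval from limma (x axis), of each S100A member for 4 choices of arrays (colours and shapes). S100a3 stays between -2.92 and -2.31. S100a6 and S100a7a move from -0.98 and -0.95 with all arrays to -0.48 and -0.37 with D-coded arrays alone. The intervals of S100a3, S100a6 and S100a7a lie below 0 for each choice shown.

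Other genes of the hair cuticle were looked at beside S100a3. Of 9 tested, 4 were called lower and 0 higher, where 0.97% and 2.81% of all probe sets were. For all 9 the ILK-deficient arrays lay below all ILK-expressing arrays, where 1.96% of all probe sets did so, with a median log2 fold change of -1.82. The genes called were the hair keratins Krt35 at -1.82 (adjusted p = 0.0390 from limma) and Krt82 at -2.03 (adjusted p = 0.0402 from limma), Padi3, and the keratin-associated protein gene Krtap5-2 at -2.05 (adjusted p = 0.0487 from limma). Padi3 is in both this list and the partner list, so its call is the same one counted there. Calls of these 4 held in 8, 8, 13 and 6 of 22 alternative settings, in that order. On D-coded arrays alone their log2 fold changes were smaller, -1.15 for Krt35, -1.21 for Krt82, -1.34 for Padi3 and -1.03 for Krtap5-2. The summed linear values of the 9 genes were 1605 to 2038 on the ILK-deficient arrays, against 3129, 4427, 2826, 14193 and 9932 on the ILK-expressing arrays. ILK-expressing replicates 4 and 5, highest in S100a3, S100a6, S100a7a and S100a8, were thus also highest in cuticle transcripts. What hair follicles contributed to the S100A differences was not tested. Melanocyte markers were higher, with summed linear values of 6861 to 13111 on ILK-deficient and 1802 to 4750 on ILK-expressing arrays and 4 of 6 called higher.

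**Figure D5:**
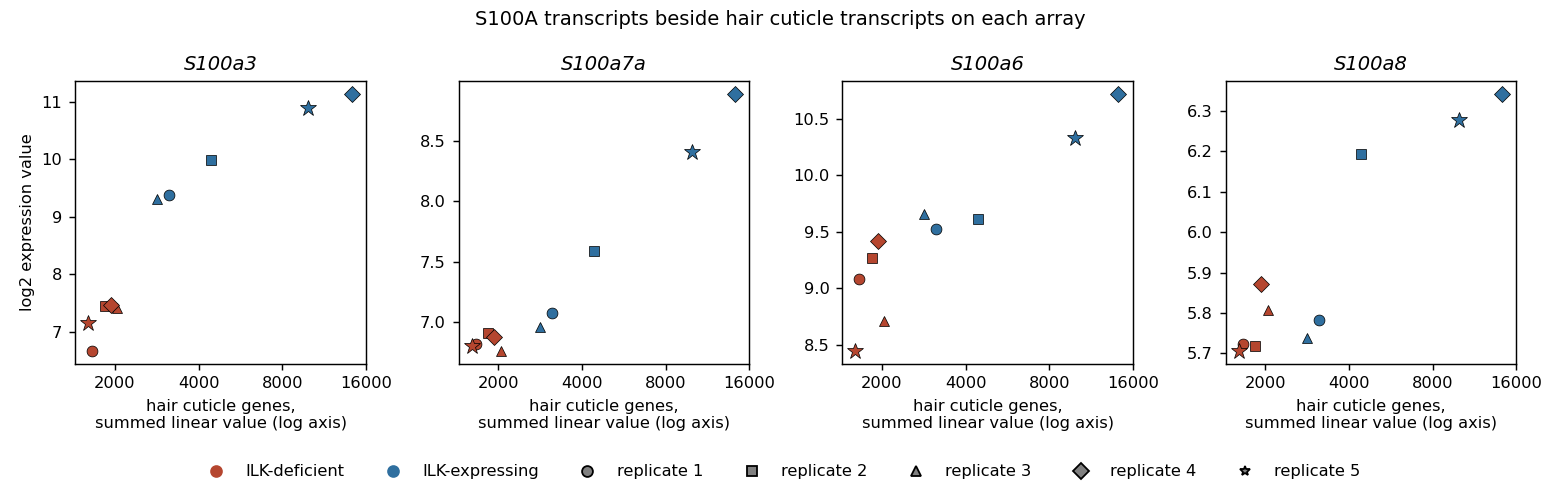
Log2 expression value of 4 S100A members (y axis, own scale per panel) against the summed linear value of 9 hair cuticle genes (x axis, log scale) on each array; red points are ILK-deficient, blue points ILK-expressing arrays, and shapes stand for replicate numbers. The ILK-deficient arrays lie at 1605 to 2038, and ILK-expressing replicates 4 and 5 are at the upper right of each panel.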

How the data were processed

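RNA of whole epidermis was measured on 10 arrays, 5 per genotype, 1 per mouse, and genotypes were taken from the sample labels. The deposited log2 values had been background-adjusted, quantile-normalized and summarised per probe set by the authors. The methods name GC-RMA, RMA Express 0.4.1 and Partek Genomics Suite 6.5, without stating the one behind the table used here. Quantile normalization makes arrays alike in distribution, so changes are relative to the other transcripts of an array. In the values used the distributions were not identical, with array medians of 7.07 to 7.17 and maxima of 14.71 to 16.66.

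Genes were named from the platform annotation (21789 probe sets with 1 symbol, 1621 with several, 12146 with none). Probe sets that reached 50 on the linear scale on 5 or more arrays were kept (32046 of 35556) and fitted with lmFit and eBayes in limma 3.58.1 (R 4.3.3), without block or covariate. The fit was tested on simulated data. Single genes also got an exact permutation test. The 22 alternatives changed the filter, scaling, test, block, probe sets per gene or arrays used. Members, lists and rules were chosen with earlier results of these data known. All members were described; of each other list, the rule took every gene called and at most 4 of the brightest others, with chromosomal neighbours of the members, Ilk and Psors1c2. Prr9, Crnn, Tchh, single cell type markers and further list genes not called were named after their values were seen. P values set the difference between genotypes against the spread between mice. In limma this spread is pooled over both genotypes and moderated across probe sets. That holds also where the SDs differ, as for S100a7a (0.0610 in ILK-deficient and 0.839 in ILK-expressing epidermis).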

Additional observations from a re-analysis of the deposited data

Results flagged for a closer look

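Each genotype of each of the 49 genes of the S100A, other S100, partner, hair cuticle and alarm lists was searched for a single array far from the other 4. Of 98 such groups 4 held one, where chance gives about 1 in 20. For S100a11, ILK-expressing replicate 3 was at 13.73, against 13.54 to 13.57 on the other ILK-expressing arrays. For Anxa6, which encodes an annexin, the same array was at 9.94, against 9.50 to 9.63. For Ager, the receptor for advanced glycation end products that S100 proteins can bind, ILK-expressing replicate 2 was at 7.39, against 7.04 to 7.09. For Krt17, ILK-deficient replicate 3 was at 13.24, against 13.45 to 13.48 on the other ILK-deficient arrays.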

How the results depend on the processing

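Of 22 alternatives, S100a3 was called lower in 22, with log2 fold changes from -3.12 to -2.31, and 0 members were called higher in any. The count of members called lower was 1 when any replicate was left out, 2 with quantile normalization repeated (S100a16 added, adjusted p = 0.0414 from limma) and 3 with the mean of the probe sets of a gene, which tests 18121 genes (S100a6, adjusted p = 0.0298, and S100a16, adjusted p = 0.0422, both from limma). S100a4 changed sign with array weights (0.012), the code prefix as a block (0.042), D-coded arrays alone (0.067), without ILK-expressing replicate 5 (0.047) and without ILK-expressing replicates 4 and 5 together (0.033, added after seeing the data). It passed in none, and ranged from -0.079 to 0.047 when a replicate was left out. The partner count of 1 became 0 under the methods' ANOVA, 2 with the mean of probe sets, and 0 to 1 when a replicate was left out (0 without any one ILK-deficient replicate or without ILK-expressing replicate 2 or 5). The hair cuticle count of 4 became 0 under ANOVA, 2 with array weights, 1 with the code prefix block, and 0 to 5 when a replicate was left out (0 for the same 7 arrays, and 2 without ILK-expressing replicate 4). The alarm count of 1 became 0 with median centring, the code prefix block, D-coded arrays alone and without ILK-expressing replicates 4 and 5 together, and 0 to 1 when a replicate was left out (1 without ILK-deficient replicate 3 or ILK-expressing replicate 4). The causes were not tested. The count over all probe sets was 1211, and 294 with D-coded arrays alone, 530 without ILK-expressing replicates 4 and 5, and 686 under ANOVA. With quantile normalization repeated it was 1493.

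Same-numbered arrays of the 2 genotypes did not deviate together (correlations of -0.02, -0.30, -0.18, -0.11 and 0.11, with 0 of 10 arrays most like the one of its own number), so the replicate number was not taken as a pairing. With it as a replicate block, the members called lower stayed at 1, the partner, hair cuticle and alarm counts were 0, and 608 probe sets were called in all. Values near the minimum of 50, such as those of S100a8, carry little signal over background.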

Other observations

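S100a1 had no overlap between arrays with a D code and the others. The share of all probe sets that separate in this way was not computed, so nothing particular to S100a1 is shown. Code and genotype are also partly mixed in this split. Its log2 values were 8.62 to 9.43 on the 7 arrays with a D code and 9.84 to 10.36 on the 3 arrays with other codes, which are ILK-deficient replicate 5 and ILK-expressing replicates 4 and 5. On ILK-deficient replicate 5 S100a3 was at 7.15, within the range of the other ILK-deficient arrays.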
